A study of Saccharomyces cerevisiae with 10 samples.

Results

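Depletion of the RNA helicase Mtr4 was compared with a wild type under the same antibiotic in budding yeast, Saccharomyces cerevisiae, over all yeast features of a table of normalized RNA densities. The features were every row of the table apart from the ERCC spike-in RNAs, which makes 10799 of 10891 rows, and 9666 of them passed a filter on low values. The depleted group, tet-MTR4-Dox, holds 2 libraries of a strain in which MTR4 stands under a doxycycline-repressed promoter (kanMX6-tetOFF::MTR4). The control group, WT-Dox, holds 2 libraries of the same background without that allele. Both are BMA64-1A cells, of mating type MATa, and are labelled with the same mutant alleles of marker genes: trp1Δ2 and ura3-1, also ade2-1 and can1-100, and further a leu2 allele with the mutations 3 and 112 and a his3 allele with the mutations 11 and 15. Both received doxycycline at 10 µg/mL for 6 hours while they were kept in mid-log growth at 30°C in YPD, a rich medium. These are 4 of 10 libraries. The other 6 come from BY4741 cells without doxycycline (a wild type, a strain without XRN1 and a strain without DBP2, 2 libraries each) and served to estimate the spread and for the contrasts at the end. The series describes the 2 libraries of each condition as biological replicates. No library of tet-MTR4 cells without doxycycline was analysed here, so an effect of the promoter allele alone and the effect of the loss of Mtr4 cannot be told apart.

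Mtr4 is an essential helicase of the nucleus that unwinds RNA and threads it into the nuclear exosome, a multi-subunit complex that degrades RNA from the 3′ end. In the TRAMP complex it works with a poly(A) polymerase, Pap2 (Trf4) or Trf5, and a zinc-knuckle protein, Air1 or Air2. The exosome trims the precursors of 5.8S rRNA and of many small nucleolar RNAs (snoRNAs) and removes short-lived noncoding transcripts, many of which are released from RNA polymerase II by the Nrd1-Nab3-Sen1 complex. The classes of noncoding transcript in the table are named after the factor whose loss reveals them. CUTs are cryptic unstable transcripts seen without nuclear exosome activity, NUTs are Nrd1-unterminated transcripts, and XUTs are Xrn1-sensitive transcripts, after the cytoplasmic exonuclease Xrn1.

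MTR4 (YJL050W, R64 chromosome X, 342522 to 345743, plus strand) had normalized densities of 0.429 and 0.469 in tet-MTR4-Dox, against 1.49 and 1.30 in WT-Dox. Its RNA was thus lower in both tet-MTR4-Dox libraries and still present in each. The log2 change was -1.62 ± 0.07 (SE; limma adjusted p = 4.9e-09, n = 2 libraries per group), a fall to 0.325 of the WT-Dox level. A density was taken, from the values alone, as a count of reads divided by the counted length and by a factor per library that follows the spike-in RNAs. Its unit is thus arbitrary and folds are relative to the spike-in RNAs. The markers of the genotype were read as well. TRP1 had 104 and 143 reads in tet-MTR4-Dox but 0 and 1 in WT-Dox, a ratio of 333 with a 95% counting interval of 59.2 to 1.32e+04, so the groups differ in this marker gene too. The reads in tet-MTR4-Dox go against the trp1Δ2 allele that its label gives. LEU2 had 1.33 and 1.32 in tet-MTR4-Dox against 1.69 and 1.41 in WT-Dox (log2 -0.21, limma adjusted p = 0.15), and ADE2 had 0.459 and 0.497 in tet-MTR4-Dox against 0.162 and 0.148 in WT-Dox. The receptor STE2, a marker of MATa cells, had densities of 6.11 and 6.45 in tet-MTR4-Dox and 4.01 and 3.91 in WT-Dox. STE3, the receptor of the opposite mating type, had 0.0530 and 0.0482 in tet-MTR4-Dox and 0.00409 and 0.00891 in WT-Dox.

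The libraries held 16056108 and 22172910 reads on rows of the table in tet-MTR4-Dox and 15978048 and 19035195 in WT-Dox. Spike-in RNAs took 2.09% and 2.06% of these reads in tet-MTR4-Dox and 3.03% and 3.14% in WT-Dox, so there were 46.9 and 47.5 yeast reads per spike-in read in tet-MTR4-Dox against 32.0 and 30.9 in WT-Dox. In such bulk samples, more cells and more RNA per cell cannot be told apart. The sources used here do not say at which step the spike-in RNAs were added.

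Across the 9666 features, 8825 were higher in tet-MTR4-Dox and 316 lower (limma, adjusted p under 0.05), or 91.3% and 3.27% of them. The median protein-coding gene was itself higher, so most of what follows is given relative to it. On that relative basis 6136 features (63.5%) were higher and 2282 (23.6%) lower. The log2 shift that this rescaling removes is 0.82. Rescaling on the median of all features removes 1.38 and gives 4372 higher and 4244 lower. Rescaling on the median snoRNA removes 2.22 and gives 3227 higher and 5437 lower, and rescaling on total yeast reads removes 0.57 and gives 7153 higher and 1387 lower. A relative log2 change below about 1.40 therefore lies below 0 on the snoRNA basis, one below 0.56 lies below 0 on the basis of all features, and one above -0.82 lies above 0 on the deposited scale. These bounds hold for the relative changes of tet-MTR4-Dox against WT-Dox below, not for those of other strains. Among protein-coding genes alone, 4860 of 5613 (86.6%) were higher and 307 (5.47%) lower on the deposited scale, and 2339 (41.7%) were higher and 2196 (39.1%) lower on the relative scale.

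The noncoding classes rose furthest. Of 894 CUTs measured, 882 rose and 1 fell, with a median log2 change of 4.31 (pairs of libraries 4.23 to 4.38), or 19.9-fold. All 1232 NUTs that passed the filter rose, with a median of 3.57. Of 1452 XUTs, 1430 rose and 1 fell, with a median of 2.81. Of 678 open reading frames without a RefSeq protein, many of which are classed as dubious, 373 passed the filter. Of these, 333 (89.3%) were higher and 2 lower, with a median of 2.40, beside 91.3% higher among all features. The 76 snoRNAs all rose, with a median of 2.15, and the protein-coding median was 0.84. Relative to the median protein-coding gene the medians were 3.75 for CUTs, 3.0 for NUTs, 2.21 for XUTs, 1.72 for these reading frames and 1.33 for snoRNAs, beside 0.58 for all features. The libraries were rescaled before the pseudocount was added, so for classes with few reads the relative and the deposited median do not differ by exactly the shift of 0.82. CUT rows took 1.52% and 1.39% of the yeast reads in tet-MTR4-Dox, against 0.0940% and 0.101% in WT-Dox. The CUTs went past 16-fold in 61.9% of cases, the NUTs in 34.9% and the XUTs in 16.3%, and 12 features of any class rose more than 256-fold. CUTs were named after the loss of exosome activity in earlier work, so their rise is what the class was chosen for. The filter, with a floor of 0.0344 on the mean over all 10 libraries, kept 894 of 925 CUTs, 1232 of 1526 NUTs and 1452 of 1664 XUTs. Their median densities in WT-Dox, from 0.0128 to 0.0182, lie under that floor. Many thus passed through libraries where they are higher, and the shares that rose partly follow from this. Without the filter, the leads over the protein-coding median were 3.425, 2.538 and 1.809.

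**Figure D1:**
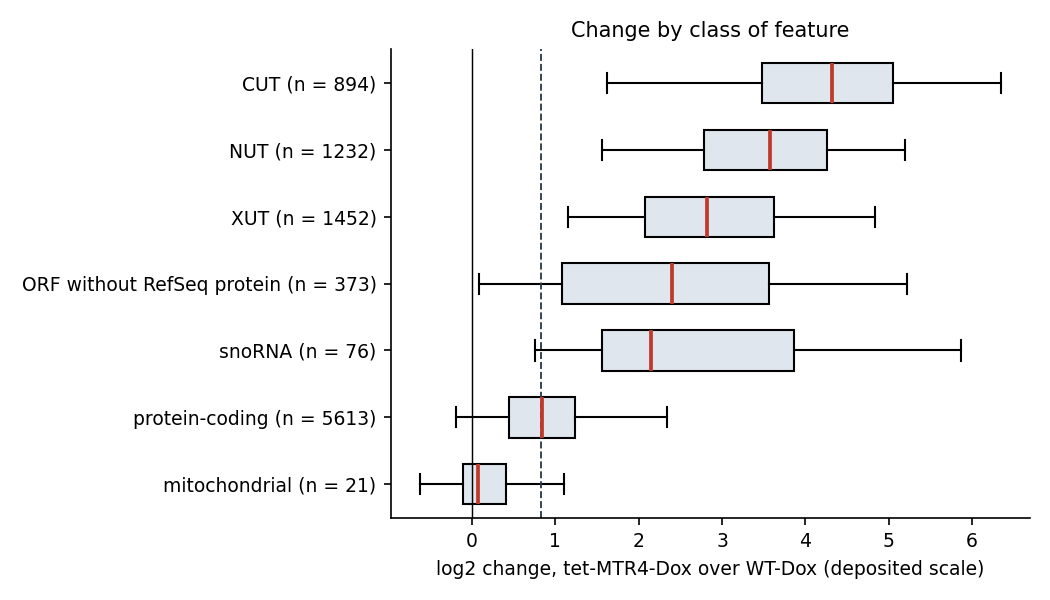
Log2 change of normalized density, tet-MTR4-Dox over WT-Dox on the deposited scale, for the kept features of 7 classes. Boxes span the quartiles with the median in red, whiskers run from the 5th to the 95th percentile, the solid line is 0 and the dashed line the shift of the median protein-coding gene (0.82); the CUT box (median 4.31) lies furthest to the right and the mitochondrial box (median 0.07) furthest to the left.

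Single CUTs were abundant in tet-MTR4-Dox and had only a handful of reads in WT-Dox. CUT307 had densities of 17.1 and 17.9 in tet-MTR4-Dox, against 0.00790 and 0.00626 in WT-Dox. These are 1521 and 2210 reads in tet-MTR4-Dox and 1 and 1 in WT-Dox, a ratio of 2514 with a counting interval of 696 to 2.08e+04. CUT222 had 23.3 and 22.8 in tet-MTR4-Dox and 0.00818 and 0.0194 in WT-Dox. The remaining 3 of the 5 CUTs with the largest rise were CUT676, CUT342 and CUT223, at log2 changes of 10.08, 9.87 and 9.67, of which that of CUT223 rests on 3 reads in WT-Dox. Fitted changes of this size depend on the pseudocount of 0.00626 added to each density. CUT648 fell, with 0.114 and 0.0683 in tet-MTR4-Dox and 0.306 and 0.253 in WT-Dox (log2 -1.59, limma adjusted p = 2.8e-05).

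Among XUTs, XUT1358 had densities of 3.37 and 3.22 in tet-MTR4-Dox and 0.0195 and 0.0124 in WT-Dox, a log2 change of 7.23 ± 0.19 (limma adjusted p = 2.7e-10). XUT0649, XUT1083 and XUT0766 rose 104-, 87.2- and 81.0-fold on the fitted scale. XUT0320 had 0 reads in both WT-Dox libraries and 214 over both tet-MTR4-Dox libraries, which makes it at least 96.2-fold higher against a floor of 3 reads over the WT-Dox group. XUT0788 fell, with 0.286 and 0.286 in tet-MTR4-Dox against 0.614 and 0.566 in WT-Dox. NUT0349 had 8.39 and 7.01 in tet-MTR4-Dox and 0.0822 and 0.0771 in WT-Dox (log2 6.48), close to NUT0942 (6.48), NUT1395 (6.45) and NUT0013 (6.36). NUT0304, with 3 reads over both WT-Dox libraries, had a read ratio of 151 with a counting interval of 51.2 to 736. The reading frame YCL007C had 6.31 and 5.68 in tet-MTR4-Dox and 0.0104 and 0.00821 in WT-Dox, the largest rise among those without a RefSeq protein (log2 8.59), ahead of YOR041C (6.88) and YDR426C (6.52). Positions of CUTs, NUTs and XUTs were not used here, so their overlap with genes was not measured. In 60 pairs of features the read counts of one were close to those of another in every library, among them NUT0227 with HSP12. Close counts need not mean overlap, since the pairs include the protein-coding genes PUB1 and BFR1, which lie on different chromosomes.

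SnoRNAs guide the chemical modification of ribosomal RNA. C/D snoRNAs carry a C box near the 5′ end and a D box near the 3′ end and direct methylation, whereas H/ACA snoRNAs end in an ACA box and direct pseudouridylation. Yeast makes most of them from genes of their own, some from polycistronic precursors and a few from introns. The sequences below, from the R64 genome, show what the classes look like for the 3 snoRNAs with the largest rise and for 2 H/ACA snoRNAs, each 5′ to 3′ on its own strand. Capitals mark TGATGA (box C) and CTGA (box D) in the first 3, and ACA in the others.
snR58 (chrXV:136088-136183, minus strand): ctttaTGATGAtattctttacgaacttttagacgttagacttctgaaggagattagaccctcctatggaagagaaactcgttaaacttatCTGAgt
snR48 (chrVII:609584-609696, plus strand): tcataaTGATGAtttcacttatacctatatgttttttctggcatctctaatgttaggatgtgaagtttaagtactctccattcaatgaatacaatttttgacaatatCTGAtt
snR56 (chrII:88190-88277, plus strand): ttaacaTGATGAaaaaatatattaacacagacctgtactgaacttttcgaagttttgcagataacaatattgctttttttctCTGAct
snR161 (chrII:307185-307345, minus strand): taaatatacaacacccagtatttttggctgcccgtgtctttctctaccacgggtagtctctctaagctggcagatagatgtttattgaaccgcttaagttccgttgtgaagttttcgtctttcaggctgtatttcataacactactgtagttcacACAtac
snR33 (chrIII:142364-142546, minus strand): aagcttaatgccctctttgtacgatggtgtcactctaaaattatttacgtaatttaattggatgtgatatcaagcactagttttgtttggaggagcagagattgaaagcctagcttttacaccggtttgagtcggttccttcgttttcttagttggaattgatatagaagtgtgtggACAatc

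The rise was larger in C/D than in H/ACA snoRNAs. snR58 had densities of 33.5 and 27.2 in tet-MTR4-Dox, against 0.234 and 0.336 in WT-Dox. Its log2 change was 6.72 ± 0.18 on the deposited scale and 5.91 on the relative scale (limma adjusted p = 1.8e-08 on the relative scale). snR48 (62.5 and 40.9 in tet-MTR4-Dox, 0.631 and 0.700 in WT-Dox) and snR56 (84.8 and 71.0 in tet-MTR4-Dox, 0.973 and 1.34 in WT-Dox) rose 75.4- and 67.7-fold. In each of them the lowest tet-MTR4-Dox library lay more than an order of magnitude above the highest WT-Dox library. The H/ACA snoRNA snR161, the one of its kind with the largest relative change, had 77.3 and 66.1 in tet-MTR4-Dox and 11.0 and 12.9 in WT-Dox, which is 6.00-fold. snR33, shown because a gene described below starts after it, had 285 and 242 in tet-MTR4-Dox and 74.8 and 82.8 in WT-Dox, which is 3.34-fold.

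By kind, all 24 C/D snoRNAs of their own gene were higher on the relative scale, with a median of 3.46 and a range of 0.50 to 5.91. Of 27 H/ACA snoRNAs of their own gene, 24 were higher and 1 lower, with a median of 0.80 and a range of -0.20 to 1.76. All 17 polycistronic snoRNAs were higher, with a median of 2.17, led by snR53 (5.06), snR61 (4.57) and snR51 (4.23). A sorting by sequence alone gave 35 C/D snoRNAs (TGATGA in the first 15 bases and CTGA in the last 12) with a median of 3.26 and 16 H/ACA snoRNAs (ACA at 3 bases from the end) with a median of 0.80, and 25 with neither or both had a median of 1.07. The medians of the H/ACA groups fall below 0 on the snoRNA basis by construction, whereas those of the C/D groups stay above it. The kinds differ in length and level too. The median length was 100.5 bases for C/D and 203 bases for H/ACA snoRNAs of their own gene, and their median WT-Dox densities were 3.95 and 36.8. The 3 C/D snoRNAs by sequence that were longer than 150 bases had a median of 0.77 and a WT-Dox density of 50.3, against 3.46 and 2.60 for the 32 shorter ones. The part of length or level in the difference between kinds was not tested. The table gives one row per snoRNA, so mature and precursor forms cannot be told apart.

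**Figure D2:**
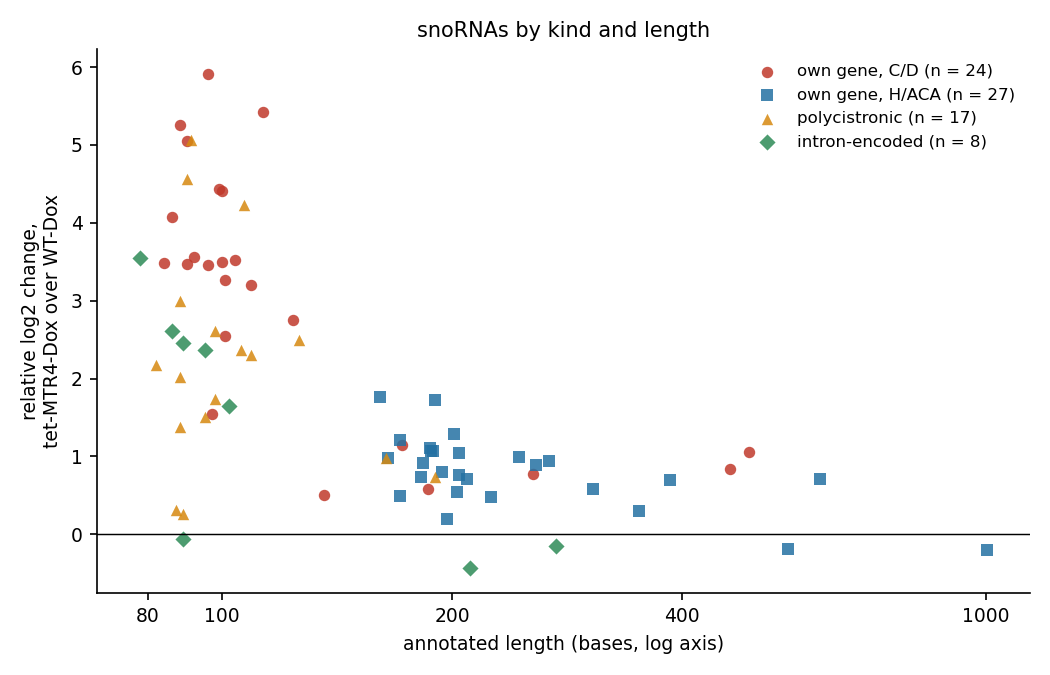
Relative log2 change, tet-MTR4-Dox over WT-Dox, of the 76 snoRNAs against their annotated length in bases (log axis), by kind. Most C/D, polycistronic and intron-encoded snoRNAs of about 100 bases lie above 2, and the H/ACA snoRNAs (median 0.80) lie between -0.20 and 1.76; on the snoRNA basis values under 1.40 would lie below 0.

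Intron-encoded snoRNAs are released from the excised intron of a host gene, so host and guide can be set side by side. Host rows may hold reads of the intron and the snoRNA, so the 2 may not be separate measures. The counted length of RPL7A, for example, was 64 bases longer than the 1662 bases of the whole gene, in which snR39 lies. Of the 8, 5 were higher and 1 lower on the relative scale, with a median of 2.00. snR59 (relative log2 3.54) lies in RPL7B (0.36), snR54 (2.61) in IMD4 (-0.99), snR39 (2.45) in RPL7A (-0.89), snR38 (2.36) in TEF4 (-1.37) and snR18 (1.65) in EFB1 (-0.67). In these 5 the snoRNA was higher while the relative change of the host was between -1.37 and 0.36. snR24 was an exception in level, at -0.06 beside -2.36 for its host ASC1, which codes for a ribosomal protein that binds signalling factors. snR44 (-0.44) and snR191 (-0.15) lie in RPS22B (0.24) and NOG2 (-0.01).

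Genes that begin just after a snoRNA made up 5 of the 12 protein-coding genes with the largest rise among those whose mean density over all libraries was at or above the median of 0.394. YDR042C, HEM4, FLX1, CTO1 and TRS31 start 398, 210, 148, 193 and 279 bases after the annotated 3′ ends of snR47, snR5, snR68, snR33 and snR13 on the same strand. Transcription of snoRNA genes is ended by the Nrd1-Nab3-Sen1 complex, whose RNA-binding subunits are known to prefer GTAA or GTAG (Nrd1) and TCTT or CTTG (Nab3). The 80 bases that follow the 3′ end of these 5 snoRNAs, R64 and 5′ to 3′ on the strand of the snoRNA, are shown with those 4 motifs in capitals, since they are the sequence between the end of the snoRNA and the gene that rose.
after snR47 (chrIV:541522-541601, minus strand): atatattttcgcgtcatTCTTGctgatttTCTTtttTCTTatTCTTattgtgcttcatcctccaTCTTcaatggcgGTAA
after snR5 (chrXV:842607-842686, plus strand): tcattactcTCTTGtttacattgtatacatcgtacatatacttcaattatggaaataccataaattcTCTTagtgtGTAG
after snR68 (chrIX:97247-97326, plus strand): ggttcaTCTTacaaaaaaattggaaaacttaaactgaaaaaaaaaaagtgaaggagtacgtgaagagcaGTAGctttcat
after snR33 (chrIII:142284-142363, minus strand): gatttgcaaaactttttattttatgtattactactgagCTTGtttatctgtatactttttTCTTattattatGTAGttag
after snR13 (chrIV:1403043-1403122, plus strand): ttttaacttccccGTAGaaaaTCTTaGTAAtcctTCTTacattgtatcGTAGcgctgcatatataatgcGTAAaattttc

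TCTT overlaps CTTG by 3 bases where both match, and only the strand of the snoRNA was searched. Over the 57 snoRNA ends, 47.4% of such windows hold GTAA, 43.9% GTAG, 82.5% TCTT and 68.4% CTTG. In the 80 bases after the coding end of the 5897 protein-coding genes these shares were 35.6%, 17.2%, 44.1% and 19.4%. A Nrd1 and a Nab3 motif occurred together in 66.7% of the windows after snoRNAs and in 22% of those after genes. These are matches of letters and were not set against binding.

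YDR042C (chromosome IV, 540601 to 541203, minus strand), an uncharacterized gene, had densities of 5.76 and 5.14 in tet-MTR4-Dox and 0.0372 and 0.0428 in WT-Dox. HEM4 (chromosome XV, 842817 to 843644), a gene of heme synthesis, had 5.53 and 4.44 in tet-MTR4-Dox and 0.123 and 0.121 in WT-Dox. FLX1 (chromosome IX, 97395 to 98330), a mitochondrial flavin carrier, had 4.38 and 3.94 in tet-MTR4-Dox and 0.132 and 0.116 in WT-Dox. In each of the 3 the libraries of the groups lay more than an order of magnitude apart. CTO1 had 5.72 and 5.06 in tet-MTR4-Dox and 0.237 and 0.219 in WT-Dox, and TRS31, a subunit of the TRAPP vesicle tethering complex, had 5.72 and 5.25 in tet-MTR4-Dox against 0.294 and 0.281 in WT-Dox. SEN2 (after snR79), a subunit of the tRNA splicing endonuclease that was named after its values were seen, had 1.65 and 1.54 in tet-MTR4-Dox and 0.135 and 0.122 in WT-Dox. On the relative log2 scale YDR042C stood at 6.15, HEM4 at 4.48, FLX1 at 4.21, CTO1 at 3.72, TRS31 at 3.41 and SEN2 at 2.78 (limma adjusted p from 1.4e-09 to 8.7e-09).

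Of all protein-coding genes, 10.4% were higher by at least 2-fold on the relative scale, with a median relative log2 change of 0.03 over all of them. Of the 21 whose start is the next one within 500 bases after a snoRNA on the same strand, 14 were higher and 4 lower, 10 (47.6%) were at least 2-fold higher, and the median was 0.90. This set was not among the planned results. It holds YDR042C, HEM4, FLX1, CTO1 and TRS31, which were named above for their rise, so its counts are no separate support for that rise. The 27 genes that lie after a snoRNA on the opposite strand had 6 higher and 17 lower, a median of -0.31 and 2 (7.41%) at least 2-fold higher. The 17 that end before a snoRNA on the same strand had 10 higher and 5 lower, with a median of 0.16, and 4 (23.5%) at least 2-fold higher. The 12 that lie before a snoRNA on the opposite strand had 4 higher and 6 lower, with a median of -0.15, and 3 (25%) at least 2-fold higher. As another background, 1778 genes that start within 500 bases after another protein-coding gene on the same strand had a median of -0.00, and 6.75% of them were at least 2-fold higher. The median of the 21 genes depends on the setting: it was 0.34 for the 27 genes within 1000 bases, 0.35 on the basis of all features and -0.47 on the snoRNA basis. Counted lengths exceed coding lengths for most genes, and the 18 genes whose extra length is no longer than the gap to the snoRNA had a median of 0.74, with 8 at least 2-fold higher.

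Further genes of this kind, named after their values were seen, show how much they vary. USE1, a SNARE protein gene after snR82, had a relative log2 change of 2.49, and UBX6 after snR60 had 1.75. RGT1, a repressor of glucose transporter genes, starts 728 bases after snR69 and had 2.65. The gene after snR58, the snoRNA with the largest rise, did not stand out: SDD3 had 1.91 and 1.99 in tet-MTR4-Dox and 1.17 and 1.05 in WT-Dox, a relative change of -0.01 (limma adjusted p = 0.77). DFR1, the dihydrofolate reductase gene after snR17a, was lower at -1.26. YJL047C-A, also among those 12 genes (log2 5.19), overlaps snR60 on the same strand and was counted over 561 bases against 135 of coding sequence, so its reads cannot be told apart from those of the snoRNA.

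**Figure D3:**
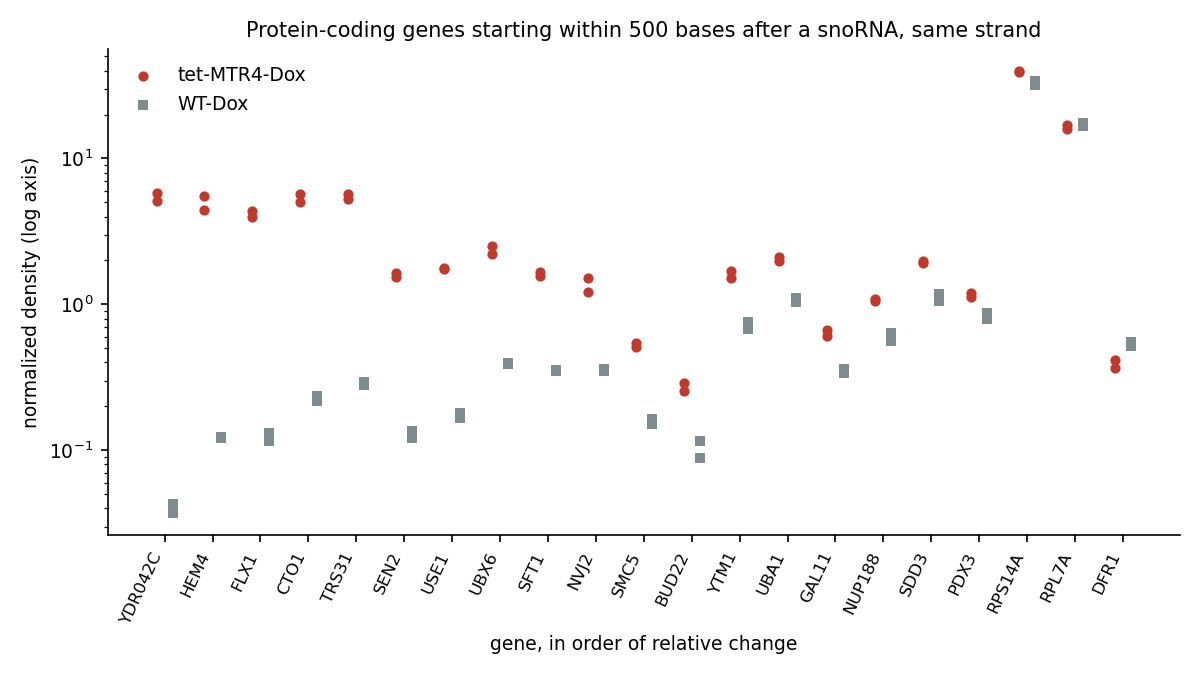
Normalized density (log axis) of the 21 protein-coding genes that start within 500 bases after a snoRNA on the same strand, in order of relative change, with tet-MTR4-Dox libraries (circles) left of WT-Dox libraries (squares). The 2 circles lie far above the 2 squares from YDR042C to NVJ2, and the groups come close or change order at the right, down to DFR1.

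NRD1 codes for the Nrd1 protein itself and is known to be held down by early termination of its own transcript. NRD1 (YNL251C, chromosome XIV, 172588 to 174315, minus strand) had densities of 5.58 and 5.57 in tet-MTR4-Dox, against 0.527 and 0.502 in WT-Dox. Both tet-MTR4-Dox libraries lay about an order of magnitude above both WT-Dox libraries (log2 3.42 ± 0.05, relative 2.61, limma adjusted p = 1.1e-09 on that scale). Its partner genes moved little: NAB3 was at -0.11 and the helicase gene SEN1 at 0.30 on the relative scale. Of 13 genes known for attenuation or control by Nrd1, 9 were higher and 4 lower relative to the median protein-coding gene, with a median of 0.49 (1.31 on the deposited scale, where 12 were higher and 1 lower). GSC2, a glucan synthase gene, was at 1.38 and the CTP synthase gene URA8 at 1.18, whereas PHO84, a phosphate transporter gene, was at -2.46. The reads of URA8 followed those of NUT0422 in every library.

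The genes of the exosome and its cofactors changed less. All 10 core exosome genes were higher on the deposited scale, at log2 changes of 0.87 to 1.41, as were 86.6% of all protein-coding genes. On the relative scale, where 41.7% of protein-coding genes were higher and 39.1% lower, 7 of 10 were higher and 0 lower, with a median of 0.20 and a highest value of 0.59 for RRP46. The nuclear cofactors RRP6, LRP1 and MPP6 stood at 0.02, 0.52 and 0.83. Of the TRAMP genes, AIR2 was at 0.96 and AIR1 at 0.28, TRF5 at 0.14 without passing the test, and PAP2 was lower at -0.47. NOP53, whose product recruits Mtr4 to pre-60S particles, was at 0.21. Genes of the small-subunit processome had 22 of 42 higher and 11 lower on the relative scale, with a median of 0.12. Those of large-subunit assembly had 19 of 41 higher, a share near that of all protein-coding genes, and 8 lower, with a median of 0.09. Of 44 splicing genes, 28 were higher and 6 lower, with a median of 0.30, led by MUD1 (1.08) and MSL1 (1.05). Of 34 proteasome genes, 22 were higher and 4 lower, with a median of 0.20. On the deposited scale every gene of the processome, large-subunit, splicing and proteasome lists was higher except 1 of the processome, which was lower.

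Stress genes were also found among the 12 genes named for their rise. DDR2, a stress gene of unknown molecular role, had densities of 1.29 and 1.11 in tet-MTR4-Dox and 0.0205 and 0.0195 in WT-Dox. HSP12, a membrane-associated stress protein, had 2.39 and 2.19 in tet-MTR4-Dox and 0.0531 and 0.0451 in WT-Dox. HSP26, a small chaperone, had 0.944 and 0.948 in tet-MTR4-Dox against 0.0368 and 0.0263 in WT-Dox. Their relative log2 changes were 4.85, 4.63 and 3.96. As a background for the lists here and below, 41.7% of all protein-coding genes were higher and 39.1% lower on the relative scale. On the deposited scale these shares were 86.6% and 5.47%. Of 28 general stress genes, 18 were higher and 6 lower on the relative scale, with a median of 0.54. On the deposited scale the median was 1.32, and 25 were higher and 2 lower, near the background. GRE1 was at 3.92 and SPI1 at 2.61, while DDR48 was at -1.55. The heat shock genes, a list that also holds HSP12, were split. On the relative scale 11 of 24 were higher and 9 lower, with quartiles of -0.40 and 1.03 and a median of -0.01. On the deposited scale the median was 0.80, and 20 were higher and 2 lower. The chaperone genes HSP60 and SSA2 were at -1.53 and -1.52. Of 18 genes of oxidative stress, 5 were higher and 10 lower on the relative scale, with a median of -0.36, while on the deposited scale 12 were higher and 3 lower with a median of 0.46.

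Some other genes that rose, such as those of meiosis, are normally quiet in growing MATa cells in rich medium. Of 32 meiosis genes in the table, 23 passed the filter. Of these, 19 were higher and 1 lower on the relative scale, beside 41.7% and 39.1% of all protein-coding genes, with a median of 1.17 (1.84 on the deposited scale). REC104, a gene of meiotic recombination, had 1.45 and 1.38 in tet-MTR4-Dox and 0.0181 and 0.0243 in WT-Dox, a relative change of 5.03. SPS4 went the other way, with 0.0271 and 0.0238 in tet-MTR4-Dox and 0.105 and 0.0942 in WT-Dox. Of 30 PAU and TIR genes, which code for cell wall mannoproteins and lie mostly near telomeres, 16 passed the filter. Of these, 14 were higher and 0 lower, with a median of 1.23 (1.93 on the deposited scale). In WT-Dox the kept members had median densities of 0.0214 (meiosis) and 0.0189 (PAU and TIR), under the filter's floor of 0.0344. That floor applies to the mean over all 10 libraries, so members low in WT-Dox could pass through libraries where they are higher. The shares that rose in these 2 lists partly follow from this. PAU genes resemble each other closely, so reads may be split between them. TIR4 had 0.208 and 0.241 in tet-MTR4-Dox and 0.0216 and 0.0243 in WT-Dox. Genes of cell wall integrity were not quiet in WT-Dox, where the median density of the list was 1.39. Of these 22 genes, 15 were higher and 7 lower, with a median of 0.32 (1.14 on the deposited scale, where 19 were higher and 1 lower). PIR3 had 0.801 and 0.772 in tet-MTR4-Dox and 0.0286 and 0.0270 in WT-Dox. ADR1, an activator of glucose-repressed genes, had 1.53 and 1.49 in tet-MTR4-Dox against 0.0766 and 0.0764 in WT-Dox, and YNL042W-B, of no stated function, had 2.34 and 2.29 in tet-MTR4-Dox against 0.0869 and 0.0813 in WT-Dox.

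Mating genes did not move as one group, with 5 of 14 higher and 6 lower on the relative scale and a median of 0.08 (0.89 on the deposited scale, where 11 were higher and 2 lower). Of all protein-coding genes, 41.7% were higher and 39.1% lower on the relative scale, and 86.6% and 5.47% on the deposited scale. MFA1, which codes for the a-factor pheromone, had 23.8 and 23.5 in tet-MTR4-Dox and 2.34 and 2.33 in WT-Dox, a relative change of 2.52. HO, the endonuclease of mating-type switching, had 0.0937 and 0.0843 in tet-MTR4-Dox and 0.621 and 0.541 in WT-Dox, a relative change of -3.44. BAR1, the protease that degrades alpha-factor, was at -1.64. Among 40 nuclear genes of the respiratory chain, 11 were higher and 22 lower on the relative scale with a median of -0.20, whereas on the deposited scale 35 were higher and 3 lower with a median of 0.62. CYC7, the hypoxic form of cytochrome c, was at 2.85 on the relative scale. Of 16 purine genes, 10 were higher and 6 lower with a median of 0.22 (1.04 on the deposited scale, where 12 were higher and 1 lower), led by MTD1 (1.86) and ADE17 (1.76).

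Genes of the phosphate regulon were lower. PHO5, the secreted acid phosphatase, had densities of 0.135 and 0.180 in tet-MTR4-Dox, against 2.58 and 2.44 in WT-Dox. Both tet-MTR4-Dox libraries lay far below both WT-Dox libraries (log2 -3.95 ± 0.12, relative -4.77, limma adjusted p = 4e-09 on that scale). Its relatives PHO12 and PHO11 were at -4.31 and -3.76, and reads may be split between these near-identical genes. PHM6 was at -3.87 and PHO84, the main phosphate transporter, at -2.46. Of 19 genes of the regulon, 17 were lower and 2 higher on the relative scale, with a median of -1.46 (-0.64 on the deposited scale, where 12 were lower and 3 higher).

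Genes of amino acid synthesis and of fermentation were lower on the relative scale. MET17, the sulfhydrylase that makes homocysteine, had 1.36 and 1.53 in tet-MTR4-Dox and 7.87 and 7.68 in WT-Dox, and MET6, the methionine synthase, had 1.73 and 1.88 in tet-MTR4-Dox against 6.85 and 6.40 in WT-Dox. Of 26 genes of sulfur amino acids, 16 were lower and 8 higher, with a median of -0.59 (0.20 on the deposited scale, where 12 were lower and 13 higher). ARG1, of arginine synthesis, had 0.566 and 0.630 in tet-MTR4-Dox and 2.58 and 2.56 in WT-Dox. Of 43 genes controlled by Gcn4, the activator of amino acid synthesis, 38 were lower and 5 higher, with a median of -0.80 (0.02 on the deposited scale, where 16 were lower and 14 higher). The highest member of this list is the strain marker TRP1, at 4.27. ADH1, the fermentative alcohol dehydrogenase, had 32.3 and 35.6 in tet-MTR4-Dox and 119 and 114 in WT-Dox. TDH2 and PGK1, of lower glycolysis, were at -2.38 and -2.17. Of 20 genes of glycolysis and fermentation, 16 were lower and 4 higher, with a median of -1.25 (-0.43 on the deposited scale, where 14 were lower and 5 higher). HXT1, a low-affinity glucose transporter, was at -2.23. SFG1, a regulator of filamentous growth, was at -2.38.

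Genes for cytosolic ribosomal proteins and histones were lower as lists on the relative scale and split on the deposited one. Of 132 ribosomal protein genes, 125 were lower and 5 higher on the relative scale, with a median of -0.81, while on the deposited scale 36 were lower and 40 higher with a median of 0.01. RPL3 had 29.9 and 32.1 in tet-MTR4-Dox and 60.0 and 56.4 in WT-Dox. All 10 histone genes were lower on the relative scale, with a median of -0.91, and 4 were lower and 3 higher on the deposited scale (median -0.09). Of 39 genes for mitochondrial ribosomal proteins, 31 were lower and 2 higher on the relative scale, with a median of -0.44, while on the deposited scale 2 were lower and 32 higher with a median of 0.38.

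**Figure D4:**
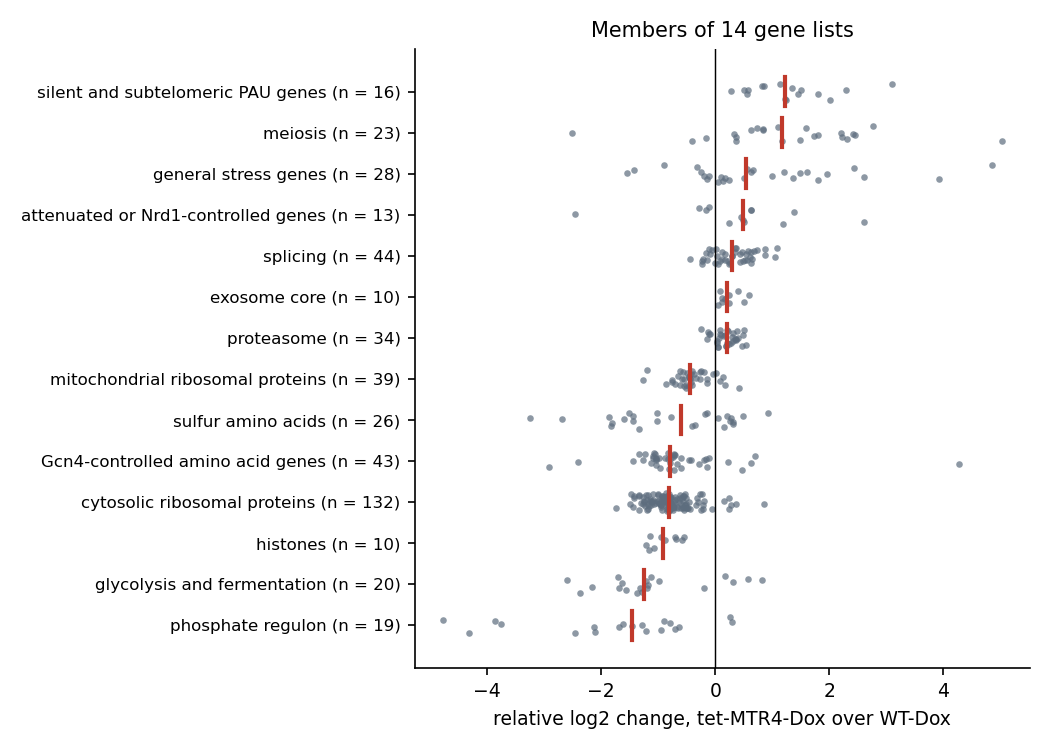
Relative log2 change, tet-MTR4-Dox over WT-Dox, of the measured members of 14 gene lists; each point is a gene and the red bar the list's median. Medians run from 1.23 (PAU genes) to -1.46 (phosphate regulon); on the deposited scale the zero line would stand at -0.82, and on the snoRNA basis at 1.40.

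The relative change also followed how abundant a gene is. To keep the measure of abundance apart from the contrast, genes were ranked by density in the BY4741 wild type, whose libraries are not part of it. In the lowest of 10 bins of that density, 83.4% were higher on the relative scale and the median was 1.25. This bin is not fully apart from the contrast, since the filter that kept its genes used the mean over all 10 libraries. Its median density in the BY4741 wild type was 0.0325, under the floor of 0.0344. Genes of this bin could thus pass through libraries where they are higher. In the highest bin, 7.13% were higher, 88.2% were lower and the median was -0.72. The medians decreased at each step between, through 0.47, 0.22, 0.11, 0.02, -0.02, -0.10, -0.16 and -0.26. A gradient of this direction was not particular to Mtr4 depletion. With genes ranked by WT-Dox density instead, the lowest and highest of 10 bins had medians of 1.30 and -0.72 under Mtr4 depletion. The same bins had 0.75 and -1.11 under loss of Xrn1, and 0.89 and -0.65 under loss of Dbp2. The lists of glycolysis, ribosomal proteins and histones consist of abundant genes and those of meiosis and PAU genes of rare ones, so abundance moved with the direction of these lists, and its part in their change was not tested.

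**Figure D5:**
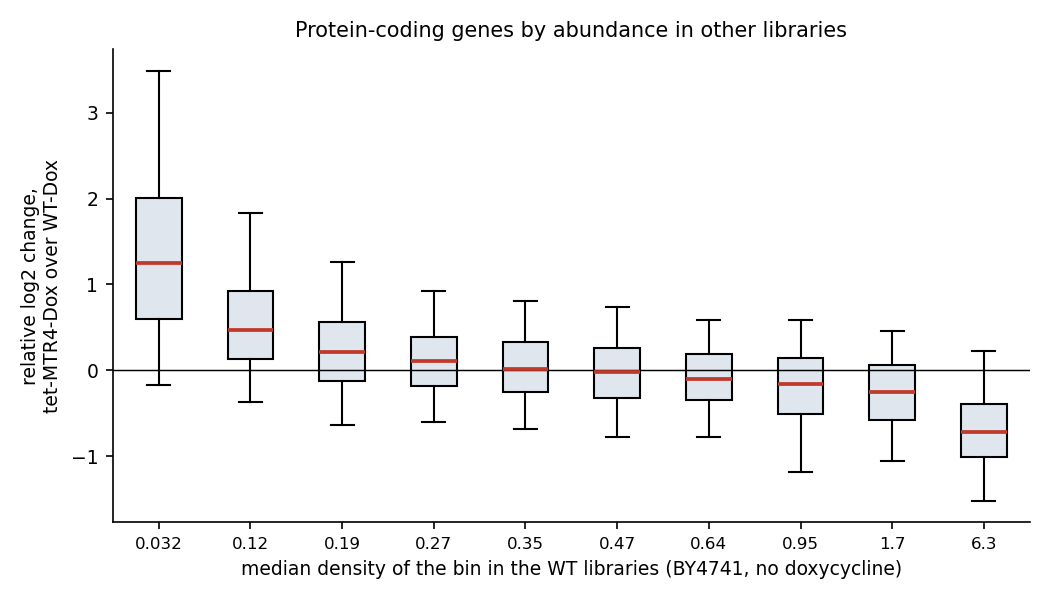
Relative log2 change, tet-MTR4-Dox over WT-Dox, of protein-coding genes in 10 bins of rising density in the BY4741 wild type. Boxes span the quartiles with the median in red and whiskers run from the 5th to the 95th percentile; medians decrease from 1.25 to -0.72, and on the deposited scale the zero line would stand at -0.82.

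The response to Mtr4 depletion was set against the responses to loss of Xrn1 and of Dbp2, an RNA helicase. These contrasts share no libraries with it, but they differ in strain and in doxycycline, which cannot be told apart from the gene lost. On the relative scale 5435 of 9666 features (56.2%) had a higher effect of Mtr4 depletion than of Xrn1 loss and 2230 (23.1%) a lower one (limma test of the difference). On the deposited scale, where the median protein-coding gene rose more without Xrn1, 2826 were higher and 5462 lower. The median protein-coding change on the deposited scale was 0.84 under Mtr4 depletion, 1.90 under Xrn1 loss and 0.81 under Dbp2 loss. Against Dbp2 loss, 5163 (53.4%) were higher and 1775 (18.4%) lower on the relative scale. CUTs were above the Xrn1 effect in 855 of 894 cases and below in 3, with a median difference of 3.92. XUTs, which are named for Xrn1, were above it in 948 of 1452 cases and below in 129, with a median difference of 1.23 on the relative scale. On the deposited scale the XUT medians lay closer together, at 2.81 under Mtr4 depletion and 2.47 under Xrn1 loss. All 76 snoRNAs were above the Xrn1 effect on the relative scale, with a median relative change of 1.33 under Mtr4 depletion and -2.0 under Xrn1 loss. On the deposited scale these medians were 2.15 and -0.11, so the relative fall under Xrn1 loss is one against protein-coding genes that were higher there. NRD1 was at 2.61 under Mtr4 depletion, 0.50 under Xrn1 loss and 0.10 under Dbp2 loss, and the differences of 2.11 and 2.51 passed the test (limma adjusted p = 1.4e-08 and 9.4e-09). On the deposited scale NRD1 was at 3.42 under Mtr4 depletion, 2.38 under Xrn1 loss and 0.89 under Dbp2 loss. HSP12 was at 4.63 under Mtr4 depletion, 2.06 under Xrn1 loss and 7.68 under Dbp2 loss. PHO5 was at -4.77 under Mtr4 depletion, -0.14 under Xrn1 loss and -2.43 under Dbp2 loss, and the difference from Dbp2 loss of -2.34 passed the test (limma adjusted p = 1.7e-06). PHO84 went the other way, at -2.46 under Mtr4 depletion and -7.90 under Dbp2 loss. The 19 genes of the phosphate regulon had relative medians of -1.46 under Mtr4 depletion, -0.55 under Xrn1 loss and -1.80 under Dbp2 loss. The 21 genes after a snoRNA, with a median of 0.90 under Mtr4 depletion, had medians of -0.17 under Xrn1 loss and -0.00 under Dbp2 loss. Some list medians had the same sign throughout, given here for Mtr4 depletion, Xrn1 loss and Dbp2 loss in turn. Glycolysis stood at -1.25, -1.50 and -1.45, and cytosolic ribosomal proteins at -0.81, -1.40 and -0.45. Meiosis genes stood at 1.17, 0.69 and 1.24, PAU and TIR genes at 1.23, 1.10 and 0.93, and general stress genes at 0.54, 0.73 and 0.88. Other lists differed, such as mitochondrial ribosomal proteins at -0.44, 0.38 and 0.10.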

How the data were processed

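Stranded total RNA-seq libraries (TruSeq Stranded Total RNA, from 125 ng of RNA without rRNA, per the labels) were analysed from a deposited table of normalized densities, a signal that the authors made with tools which the submitters' processing notes give as HISAT2 2.2.0, DESeq2, Trim Galore and featureCounts 2.0.0, without their roles, on the R64 genome. Without a label stating it, the values were taken as whole reads divided by length and by a factor per library that follows the spike-in RNAs. The length of a row was the annotated one where it gave whole reads, and otherwise the shortest that did. That 100% of values came within 0.02 of a read thus follows from the choice of length and is no separate support. Count tests were not used, since the value of a read depends on length.

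Low features, those averaging less than 0.0344 (the 10th percentile), were left out, and log2(density + 0.00626) was fitted with limma 3.58.1 in R 4.3.3 (lmFit, eBayes with a trend, a coefficient per group, all 10 libraries, 5 residual degrees of freedom). The SE of a change therefore pools the spread within all 5 groups. Calls use a Benjamini-Hochberg adjusted p under 0.05 over all 9666 features. An exact permutation test of 2 against 2 libraries cannot go below 0.333 and was not used. Fold changes on this scale understate those of low features. For relative values the libraries were first rescaled on their median protein-coding gene. Intervals and floors cover counting error only.

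Gene positions and sequences came from RefSeq's R64 assembly, with 5996 rows matched. Promoter motifs were planned but not analysed here. Named are MTR4 and the marker genes, the 12 protein-coding genes that rose most and the 12 that fell most among those at or above the median density (0.394), the 5 CUTs, NUTs, XUTs and snoRNAs that rose most and up to 3 that fell most, 3 reading frames, members of the exosome, TRAMP and Nrd1 lists, and up to 4 members of each of the other lists with 2 in the other direction, not all of which are printed. The members and the 47 lists, made from general knowledge, were chosen with earlier results of these data known. The alternatives were the pseudocount, the filter, the scaling, voom weights, the 4 libraries alone, a replicate block and leaving out each library. The fit of the deposited scale was also run on simulated data in which few features changed, all upward. Its results are not given here, and the rescaled fit was not simulated. Python 3.11.15 with pandas 2.3.3, numpy 2.4.6, scipy 1.17.1 and matplotlib 3.10.9 was used for the rest.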

Additional observations from a re-analysis of the deposited data

How the results depend on the processing

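The scaling moved the counts most. The number of features higher in tet-MTR4-Dox, 8825 on the deposited scale, was 4372 when rescaled on all features and 3227 when rescaled on the median snoRNA. The number lower, 316 on the deposited scale, was 4244 on all features, 2282 on the median protein-coding gene, 5437 on the median snoRNA and 1387 on total yeast reads. Set against the 2282 lower on the relative scale, the 4244, 5437 and 1387 differ as well. The difference between the Mtr4 and Xrn1 effects was 5435 above and 2230 below on the relative scale but 2826 above and 5462 below on the deposited scale. The median relative change of genes after a snoRNA, 0.90, was 0.35 on all features, -0.47 on the median snoRNA, 1.15 on total yeast reads and 0.34 within 1000 bases. That distance and the leaving out of noncoding units whose read counts were close to those of another feature were chosen after seeing the data. The set of genes after a snoRNA was not planned.

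The lead of the noncoding classes over the protein-coding median changed in size and not in sign. For CUTs it was 3.48, and 2.57 with a pseudocount 4 times larger, 3.93 with one 4 times smaller and 3.96 with voom weights. For NUTs it was 2.73, and 1.88, 3.15 and 3.28 under the same settings, 2.54 without the filter and 2.84 against protein-coding genes of at least the median density. For XUTs it was 1.98, and 1.31, 2.30 and 2.35, then 1.81 without the filter and 2.08 against those genes. The cause of these moves was not tested beyond the settings themselves.

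Leaving out each library in turn gave 8646 to 8877 higher and 261 to 338 lower, 5931 to 6008 higher and 2184 to 2225 lower on the relative scale, and leads of 3.40 to 3.55 for CUTs, 2.68 to 2.84 for NUTs, 1.93 to 2.06 for XUTs and 1.16 to 1.44 for snoRNAs. It gave 5332 to 5402 above and 2184 to 2214 below the Xrn1 effect, 5028 to 5108 above and 1711 to 1741 below the Dbp2 effect, and 0.85 to 0.95 for genes after a snoRNA. With the replicate number as a block, 8839 features were higher and 319 lower, and 6133 and 2278 on the relative scale. No pairing by replicate number was seen: deviations of same-numbered tet-MTR4-Dox and WT-Dox libraries correlated at -0.0073 over features, and the block changed no call of a named feature. With 2 libraries per group, this check cannot settle whether same-numbered libraries were handled together.

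Of 111 features named, 27 changed direction under a rescaling. On the median snoRNA the log2 changes became -0.58 for ADE2, -1.11 for AIR1, -0.42 for AIR2, -2.07 for EFB1, -0.0091 for GSC2, -0.87 for LRP1, -0.56 for MPP6, -0.33 for MSL1, -0.29 for MUD1, -1.50 for NAB3, -1.41 for NOG2, -1.18 for NOP53, -0.27 for NVJ2, -1.85 for PAP2, -1.04 for RPL7B, -1.16 for RPS22B, -0.80 for RRP46, -1.37 for RRP6, -1.40 for SDD3, -1.08 for SEN1, -1.56 for STE2, -1.23 for TRF5, -0.20 for URA8, -1.55 for snR191, -1.46 for snR24, -0.49 for snR33 and -1.84 for snR44. On all features they became -0.28 for AIR1, -1.23 for EFB1, -0.034 for LRP1, -0.67 for NAB3, -0.56 for NOG2, -0.34 for NOP53, -1.02 for PAP2, -0.20 for RPL7B, -0.32 for RPS22B, -0.54 for RRP6, -0.57 for SDD3, -0.25 for SEN1, -0.71 for STE2, -0.41 for TRF5, -0.71 for snR191, -0.62 for snR24 and -0.99 for snR44. On the median protein-coding gene they became -0.67 for EFB1, -0.11 for NAB3, -0.0085 for NOG2, -0.47 for PAP2, -0.010 for SDD3, -0.16 for STE2, -0.15 for snR191, -0.062 for snR24 and -0.44 for snR44, and on total yeast reads -0.42 for EFB1, -0.22 for PAP2 and -0.18 for snR44. The calls of EFB1 and snR44 on the deposited scale were also lost without a library: EFB1 without tet-MTR4-Dox replicate 2 or WT-Dox replicate 2, and snR44 without tet-MTR4-Dox replicate 2 or WT-Dox replicate 1. Depth limits CUTs, NUTs and XUTs with few reads in WT-Dox, whose fold changes depend on the pseudocount.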

Other observations

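Other RNAs outside the comparisons above also moved. NME1, the RNA of RNase MRP, an enzyme of rRNA processing, had densities of 136 and 125 in tet-MTR4-Dox and 41.5 and 37.4 in WT-Dox (log2 1.73 on the deposited and 0.91 on the relative scale). All 4 features of the 2-micron plasmid, a DNA circle carried by most laboratory yeast, were higher, as were 91.3% of all features, with a median log2 change of 2.14. Of 21 mitochondrial features, 7 were higher and 5 lower on the deposited scale, with a median of 0.07, and 0 were higher and 15 lower on the relative scale, with a median of -0.71. The 254 genes with split coding sequences had a relative median of -0.17, but the 166 of them that are not genes of cytosolic ribosomal proteins had 80 higher and 50 lower with a median of 0.12, beside 0.04 for the 5359 unsplit genes.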
